A study of Mus musculus with 2 samples.

Results

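The genes described here are 38 genes of the lysosome, all measured in optic nerve of mice at postnatal day 12. They were chosen by symbol as cathepsins and other lysosomal hydrolases, a cathepsin inhibitor, lysosomal membrane proteins, progranulin and the transcription factors of the TFEB family, out of 23950 gene symbols in the deposited tables. Each of the 38 symbols has 1 entry, and all 38 passed the filter described below, which kept 14154 genes of the whole table. RNA-seq was done on 1 library of Hdac3 f/f; Olig1-cre mice, called the Hdac3 cKO library here, and on 1 library of Hdac3 f/+; Olig1-cre mice, the control library. Both groups carry Olig1-cre, a recombinase driven from the Olig1 gene, which is active in cells of the oligodendrocyte lineage. Both also carry at least 1 Hdac3 allele that this recombinase can delete, and both are of mixed strain background. Other cells of the nerve, such as microglia, vessels and sheath fibroblasts, are outside the oligodendrocyte lineage. The values here do not show in which cells Hdac3 was deleted. The sources used here do not say how many animals went into a library. The study concerns Hdac3, which removes acetyl groups from histones, and the fate of cells that can become oligodendrocytes or astrocytes.

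Lysosomes are acidic compartments in which proteases, glycosidases, sulfatases and lipases break down proteins, sugars and lipids that arrive by endocytosis, phagocytosis or autophagy. Many of their genes carry an E-box in the promoter that TFEB and its relatives TFE3 and MITF can bind, which lets a cell raise lysosomal genes together. In white matter, lysosomal enzymes handle the turnover of myelin lipids, microglia and macrophages are rich in them, and inherited loss of several of these enzymes damages myelin or neurons.

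The files give FPKM, a level per transcript length, so levels can be compared between genes. Each value has a deposited interval that covers estimation within the library only. The difference is log2 of the FPKM plus 1 in the Hdac3 cKO library over the same in the control library. A gene is called higher or lower here when it differed by at least 2-fold on that scale and the deposited intervals were apart. Because each group is a single library, no replicate check and no p-value can be given, and every statement describes these 2 libraries. FPKM summed to 557861 in the Hdac3 cKO library and 441867 in the control library. The largest value of a tested gene was 77619 FPKM in the Hdac3 cKO library and 15976 FPKM in the control library. Sums, shares of them and scaling to equal sums therefore depend in part on a single entry. Read depth is unknown. Hdac3 itself was at 38.04 FPKM in the Hdac3 cKO library and 36.4 FPKM in the control library (log2 difference 0.06), so the whole-gene level does not separate the libraries, and directions below refer to the library labels. The tissue label was checked against markers: myelin genes such as Mbp and astrocyte genes such as Gja1 were abundant in both libraries, with Mbp at 2013 FPKM in the Hdac3 cKO library and 15976 FPKM in the control library.

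Lysosomal genes as a group sat a little higher in the Hdac3 cKO library. Cst3 and several cysteine cathepsins were highest in difference, and Tfeb and Mitf were lowest. Of the 38 genes, 30 differences were above 0 and 8 below, and the middle of the distribution was 0.37 (median), with quartiles at 0.044 and 0.62. Over all 14154 tested genes the median was 0.12, with quartiles at -0.17 and 0.43, and 61.4% of differences were above 0, against 78.9% of the lysosomal genes. By the 2-fold rule 3 lysosomal genes were higher, Cst3, Ctsk and Ctsc, which is 7.89% of the 38, beside 4.73% of all tested genes. None was lower, beside 4.51% of all tested genes. By fold size alone the counts were the same, 3 higher and 0 lower, beside 5.72% and 4.97% of all tested genes. A count of 3 is near that background. It also rests on small margins, because these genes lie at 1.01 to 1.07 on the log2 scale and the nearest gene below the threshold, Ctsh, at 0.98. When the libraries were scaled to equal upper quartiles, centred on the median or scaled to equal FPKM sums, 0 of the 38 were called higher.

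Smaller differences were counted as well. Intervals were separate with the Hdac3 cKO library higher for 25 lysosomal genes (65.8%, beside 38.4% of all tested genes) and with it lower for 6 (15.8%, beside 22.5%). For 7 genes the intervals overlapped, namely Ctso, Ctss, Gla, Neu1, Lipa, Cln3 and Mcoln1. The shares of all tested genes, here and below, were not matched for level. Abundant genes can have separate intervals at small differences. Lamp1, at 388 FPKM in the Hdac3 cKO library and 406 FPKM in the control library, had separate intervals at a log2 difference of -0.07. With a threshold of 1.5-fold and separate intervals, 12 genes were higher (31.6%, beside 16.0% of all tested genes) and 1 was lower (2.63%, beside 8.85%). The median of the lysosomal genes lay above the median of all tested genes by 0.25 on the deposited scale, 0.24 with equal upper quartiles and 0.20 with equal sums; these margins are nearly fixed by construction, since each scaling multiplies every Hdac3 cKO value by 1 factor. The median of the lysosomal genes itself was 0.29, 0.25 and 0.037 with equal upper quartiles, centring and equal sums, and the number of differences above 0 was 26, 25 and 20. Scaling moved the median of all tested genes itself to 0.05 at the same upper quartile and -0.17 at the same sum. The share of called genes that were higher, over the whole table, was 51.2% on the deposited scale, 43.3% at the same upper quartile, 36.6% when centred and 18.3% at the same sum.

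**Figure D1:**
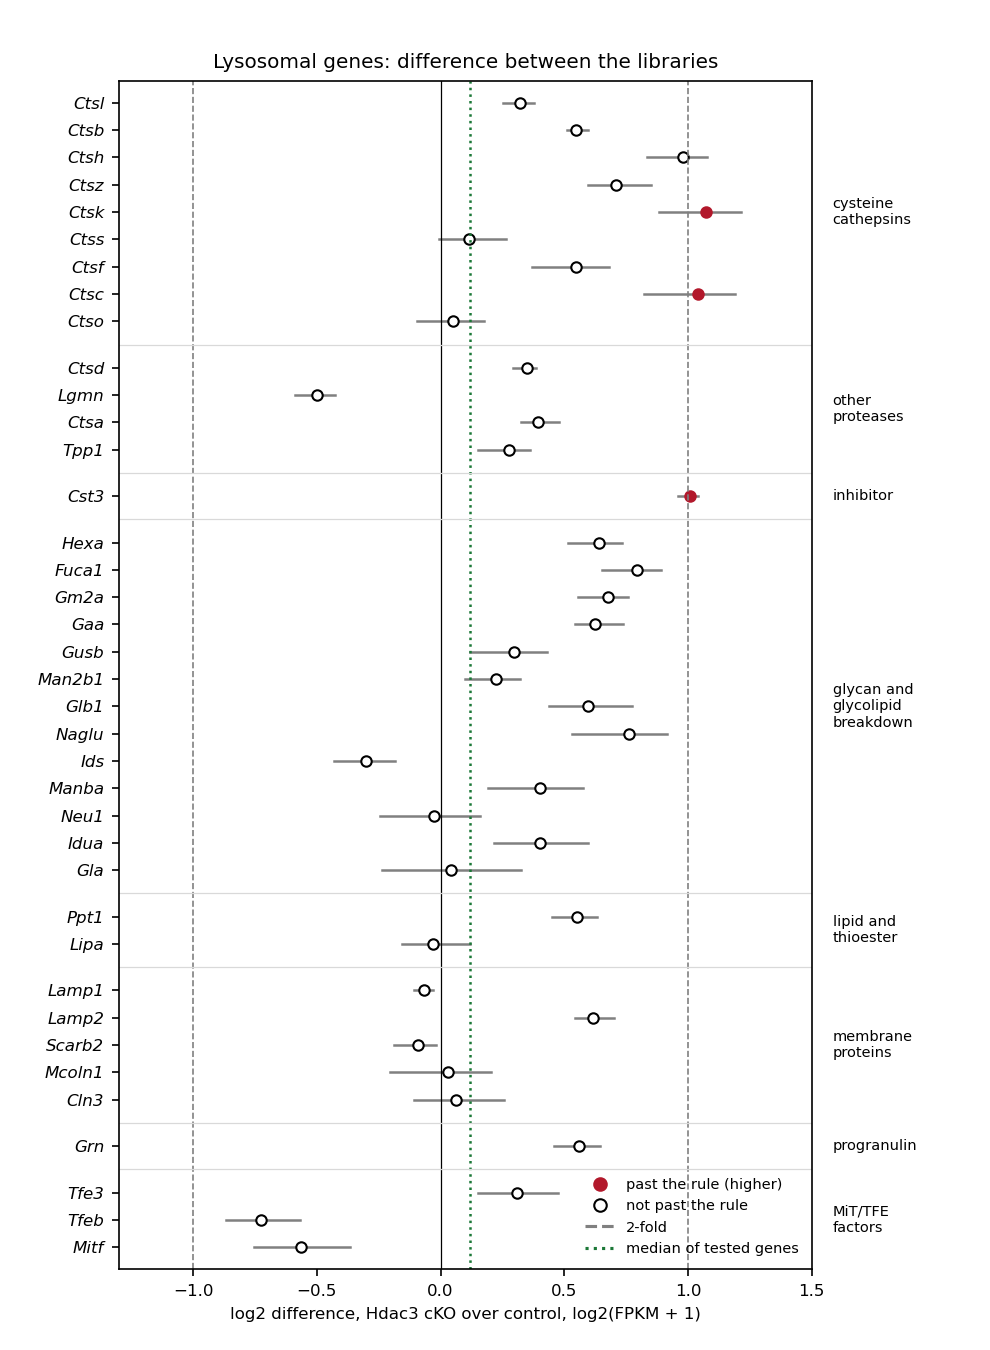
Log2 difference of each lysosomal gene, Hdac3 cKO over control, on the log2(FPKM + 1) scale, grouped by role. Points are the 38 genes, grey lines span the values that the bounds of the deposited intervals allow, dashed lines mark 2-fold and the dotted line the median of all tested genes, 0.12. Filled points are Ctsk, Ctsc and Cst3, the 3 genes past the rule, and Tfeb lies lowest at -0.73.

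Values from whole nerve mix all its cells, so fewer cells of a type and less RNA per cell cannot be told apart. Markers of the cell types of the nerve are given here beside the lysosomal genes. Of all tested genes, 4.73% were called higher and 4.51% lower, and 61.4% had differences above 0. All 8 markers of perivascular and meningeal macrophages had differences above 0, and 5 were called higher; they summed to 156 FPKM in the Hdac3 cKO library and 62.3 FPKM in the control library. Of 20 microglia markers, 2 were higher and 0 lower (sums of 776 FPKM in the Hdac3 cKO library and 487 FPKM in the control library). These markers were mixed in direction: 13 differences were above 0, 12 of them with separate intervals, and 7 were below 0, 3 of them with separate intervals. Those 3, named after their values were seen, are P2ry12 (log2 -0.19), Siglech (log2 -0.39) and Gpr34 (log2 -0.38). Of 8 fibroblast markers, 6 were higher (sums of 4301 FPKM in the Hdac3 cKO library and 1831 FPKM in the control library), and of 11 astrocyte markers 2 were higher, 10 were above 0 and 1 was below (sums of 3300 FPKM in the Hdac3 cKO library and 1933 FPKM in the control library). For 9 endothelial and mural markers, 1 of them higher, the sums were 557 FPKM in the Hdac3 cKO library and 337 FPKM in the control library. Oligodendrocyte markers went the other way, with 13 of 13 lower and sums of 4053 FPKM in the Hdac3 cKO library and 29445 FPKM in the control library. Of 6 oligodendrocyte precursor markers, 2 were lower, Gpr17 and Neu4 (sums of 161 FPKM in the Hdac3 cKO library and 359 FPKM in the control library). Differences of this list were above 0 for 2 markers and below 0 for 4. Gpr17 alone was at 37.2 FPKM in the Hdac3 cKO library and 215 FPKM in the control library, so it weighs heavily on the sums. No marker of these 7 lists was listed at 0 in either library. The part that these marker differences have in the lysosomal differences was not tested.

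Levels of the 38 genes spanned a wide range, and their order was much alike in both libraries. Cst3 was the most abundant in each and Mitf the least, at 1.77 FPKM in the Hdac3 cKO library and 3.10 FPKM in the control library. Of the 10 genes with the highest FPKM, 9 were common to both libraries. Together the 38 genes summed to 4975 FPKM in the Hdac3 cKO library and 3320 FPKM in the control library, which is 0.892% and 0.751% of all FPKM in those libraries. Cst3 made up 45.9% of this sum in the Hdac3 cKO library and 34.2% in the control library. Without it the other 37 genes summed to 2692 FPKM in the Hdac3 cKO library and 2185 FPKM in the control library, a ratio of 1.23.

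**Figure D2:**
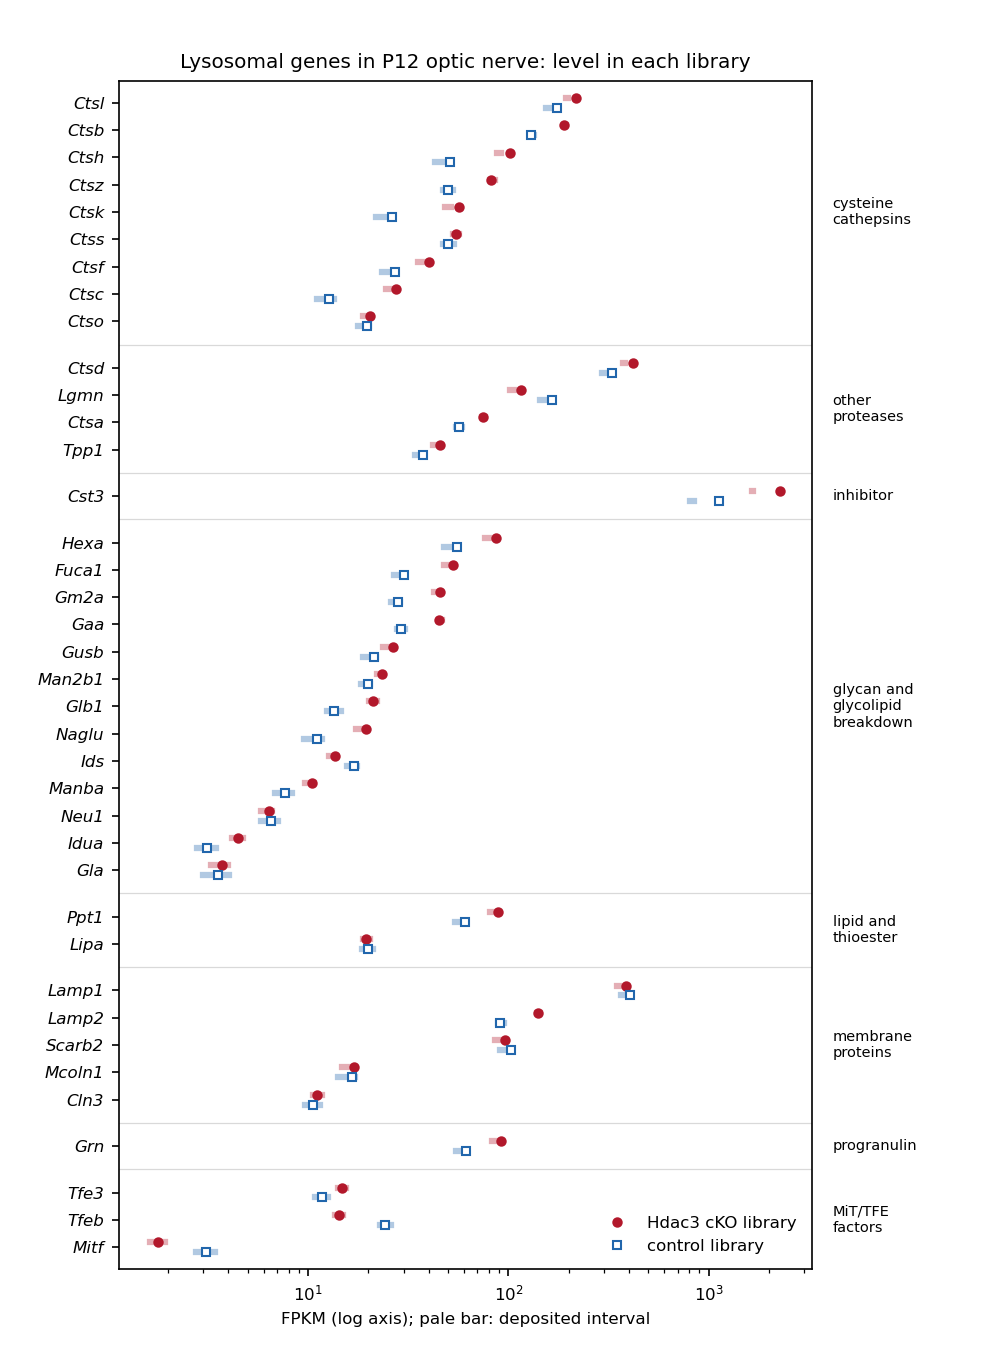
Level of each lysosomal gene in FPKM on a log axis, with filled circles for the Hdac3 cKO library and open squares for the control library, grouped by role. Pale bars are the deposited intervals, which for many genes lie below the point itself. Cst3 is at the right end, with 2284 FPKM in the Hdac3 cKO library and 1134 FPKM in the control library, and Mitf at the left end.

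Cystatin C, encoded by Cst3 (chromosome 2, 148697468 to 148701204, mm9), is a secreted inhibitor of cysteine cathepsins and is abundant in brain astrocytes and microglia. Its level was 2284 FPKM in the Hdac3 cKO library and 1134 FPKM in the control library, a log2 difference of 1.01. Both values lie well above their own deposited intervals, 1647 to 1672 FPKM in the Hdac3 cKO library and 812 to 848 FPKM in the control library, so the absolute level is uncertain. The bounds of those intervals give a log2 difference of 0.96 to 1.04, which straddles the 2-fold line. Set against the sum of the 9 cysteine cathepsins, Cst3 had a ratio of 2.89 in the Hdac3 cKO library and 2.09 in the control library. The inhibitor thus differed by more than the summed proteases on the FPKM scale.

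The 9 cysteine cathepsins all had differences above 0, from 0.05 to 1.07, with a median of 0.55, and they summed to 791 FPKM in the Hdac3 cKO library and 541 FPKM in the control library. Ctsk and Ctsc were called higher (22.2% of the 9, beside 4.73% of all tested genes), both just past the threshold and neither past it under another scaling. Intervals were separate for these and for 5 more, Ctsh, Ctsz, Ctsb, Ctsf and Ctsl (77.8% of the 9, beside 38.4% of all tested genes). The share of all tested genes was not matched for level. Cathepsin K cleaves collagen and is best known from osteoclasts, where it degrades bone matrix. Ctsk, on chromosome 3 from 95303132 to 95313309 (mm9), had 56.6 FPKM in the Hdac3 cKO library and 26.4 FPKM in the control library, a log2 difference of 1.07 with bounds of 0.88 to 1.21. Osteoclast markers were scarce: 5 of the 6 on the list were below 1 FPKM in both libraries, and the list summed to 7.79 FPKM in the Hdac3 cKO library and 5.37 FPKM in the control library. Fibroblast collagen genes were abundant, with Col1a2 at 704 FPKM in the Hdac3 cKO library and 335 FPKM in the control library (log2 1.07). Which cells hold the Ctsk RNA was not tested. Ctss, which encodes a cathepsin of microglia and other antigen-presenting cells, lies 17398 bases downstream of the end of Ctsk in mm9 coordinates. It was at 54.5 FPKM in the Hdac3 cKO library and 50.2 FPKM in the control library, and the log2 difference was 0.12, equal to the median of all genes to 2 decimals. These neighbours therefore had similar levels in the Hdac3 cKO library and unlike levels in the control library.

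Cathepsin C, a dipeptidyl peptidase that activates serine proteases of immune cell granules, is encoded by Ctsc (chromosome 7, 95426603 to 95459385, mm9). It was at 27.3 FPKM in the Hdac3 cKO library and 12.8 FPKM in the control library, a log2 difference of 1.04 with bounds of 0.82 to 1.19. Ctsh, for an aminopeptidase, was at 102 FPKM in the Hdac3 cKO library and 51.3 FPKM in the control library (log2 0.98). Ctsz, for a carboxypeptidase, was at 82.3 FPKM in the Hdac3 cKO library and 50.01 FPKM in the control library (log2 0.71). Ctsl and Ctsb were the most abundant of the family in both libraries. Ctsl was at 218 FPKM in the Hdac3 cKO library and 175 FPKM in the control library (log2 0.32), and Ctsb at 190 FPKM in the Hdac3 cKO library and 129 FPKM in the control library (log2 0.55). The Ctsb entry shares 773 bases with the entry of Fdft1, a cholesterol synthesis gene that was at 29.996 FPKM in the Hdac3 cKO library and 63.3 FPKM in the control library, so its level is uncertain if reads of the overlap were assigned to either gene. Ctsf was at 40.2 FPKM in the Hdac3 cKO library and 27.2 FPKM in the control library (log2 0.55), and Ctso at 20.4 FPKM in the Hdac3 cKO library and 19.7 FPKM in the control library (log2 0.05).

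The 100 bases before the start site of the 3 genes past the rule are printed here, from RefSeq on GRCm38.p6. The promoters of many lysosomal genes carry the E-box CACGTG and these windows do not. Lacking it is not particular to these 3 genes, since 24 of the 36 described genes with a promoter entry have none. The windows lie at chr3:95499110-95499209 (plus strand), chr7:88277985-88278084 (plus strand) and chr2:148875513-148875612 (minus strand), and each reads 5′ to 3′ on the strand of its gene, ending at the base before the start site.
Ctsk: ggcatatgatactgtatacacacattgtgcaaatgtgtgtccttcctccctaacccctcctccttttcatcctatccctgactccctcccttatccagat
Ctsc: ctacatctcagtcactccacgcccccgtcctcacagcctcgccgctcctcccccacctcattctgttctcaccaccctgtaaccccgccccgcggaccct
Cst3: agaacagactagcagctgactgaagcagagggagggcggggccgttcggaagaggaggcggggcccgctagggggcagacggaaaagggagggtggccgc

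Among the other proteases, Ctsd, for the aspartic protease cathepsin D, was the second most abundant of the 38 genes in the Hdac3 cKO library. It was at 422 FPKM in the Hdac3 cKO library and 331 FPKM in the control library (log2 0.35). Ctsa, for a serine carboxypeptidase that also shields the sialidase Neu1 and the galactosidase Glb1, was at 74.4 FPKM in the Hdac3 cKO library and 56.4 FPKM in the control library (log2 0.39). Its entry shares 1515 bases with Pltp and 725 bases with Neurl2, and Pltp was itself at 187 FPKM in the Hdac3 cKO library and 96.6 FPKM in the control library, so the Ctsa level is uncertain. Tpp1, for a tripeptidyl peptidase, was at 45.4 FPKM in the Hdac3 cKO library and 37.3 FPKM in the control library (log2 0.28). Lgmn encodes legumain, an asparaginyl endopeptidase that processes cathepsins, and it stood apart from the proteases above in direction. It was at 116 FPKM in the Hdac3 cKO library and 164 FPKM in the control library, a log2 difference of -0.50 with bounds of -0.59 to -0.43. Only 11.2% of all tested genes had a smaller (more negative) difference.

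The 13 genes for breakdown of glycans and glycolipids had a median log2 difference of 0.40, and none was past the 2-fold rule in either direction. Their intervals were separate with the Hdac3 cKO library higher for 10 (76.9%, beside 38.4% of all tested genes) and lower for 1, Ids (7.69%, beside 22.5%), and they overlapped for Gla and Neu1. The shares of all tested genes were not matched for level. The largest difference was that of Fuca1, for the enzyme that removes fucose, at 53.0 FPKM in the Hdac3 cKO library and 30.2 FPKM in the control library (log2 0.79). Naglu, for an enzyme of heparan sulfate breakdown, was at 19.4 FPKM in the Hdac3 cKO library and 11.1 FPKM in the control library (log2 0.76). Hexa encodes the alpha subunit of β-hexosaminidase, and Gm2a the activator that presents the ganglioside GM2 to this enzyme. Hexa was at 87.1 FPKM in the Hdac3 cKO library and 55.6 FPKM in the control library (log2 0.64), and Gm2a at 45.4 FPKM in the Hdac3 cKO library and 28.1 FPKM in the control library (log2 0.68). Both had separate intervals.

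Gaa, for the acid glucosidase that degrades glycogen, was at 45.2 FPKM in the Hdac3 cKO library and 29.0 FPKM in the control library (log2 0.62). Glb1, for β-galactosidase, was at 21.0 FPKM in the Hdac3 cKO library and 13.5 FPKM in the control library (log2 0.60), and the entry of Tmppe lies over 10107 bases of it. The remaining genes of this group differed by 0.40 or less on the log2 scale. Manba and Man2b1 encode mannosidases, at 10.5 and 23.5 FPKM in the Hdac3 cKO library and 7.69 and 20.0 FPKM in the control library. Gusb, for β-glucuronidase, was at 26.5 FPKM in the Hdac3 cKO library and 21.4 FPKM in the control library. Iduronic acid is removed from glycosaminoglycans by the products of Ids, a sulfatase, and Idua, an iduronidase, which act in turn. Ids was at 13.6 FPKM in the Hdac3 cKO library and 16.98 FPKM in the control library (log2 -0.30), while Idua was at 4.44 FPKM in the Hdac3 cKO library and 3.11 FPKM in the control library (log2 0.40). The Idua entry shares 5103 bases with Slc26a1 and 439 bases with Dgkq. Gla, for α-galactosidase, was at 3.69 FPKM in the Hdac3 cKO library and 3.56 FPKM in the control library, and Neu1, for the sialidase, at 6.398 FPKM in the Hdac3 cKO library and 6.53 FPKM in the control library.

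Ppt1 and Lipa act on lipid bonds. Ppt1, for the thioesterase that strips palmitate from proteins, was at 89.1 FPKM in the Hdac3 cKO library and 60.5 FPKM in the control library (log2 0.55). Lipa, for the acid lipase of cholesteryl esters and triglycerides, was at 19.5 FPKM in the Hdac3 cKO library and 19.9 FPKM in the control library (log2 -0.03, intervals overlapping). Grn encodes progranulin, a secreted protein that is cut into granulins in lysosomes and is abundant in microglia. It was at 91.5 FPKM in the Hdac3 cKO library and 61.7 FPKM in the control library (log2 0.56).

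The 5 lysosomal membrane protein genes had a median log2 difference of 0.03, below that of all tested genes, and 1 of the 5, Lamp2, was above the median of all genes. The sign of this median depends on the scaling, and it was -0.045 at the same upper quartile, -0.091 when centred and -0.29 at the same sum. Lamp1 and Lamp2 encode the major glycoproteins of the lysosomal membrane. Lamp1, on chromosome 8 from 13159135 to 13175338 (mm9), had 388 FPKM in the Hdac3 cKO library and 406 FPKM in the control library, a log2 difference of -0.07. Lamp2 was at 140 FPKM in the Hdac3 cKO library and 90.99 FPKM in the control library, a log2 difference of 0.62 with bounds of 0.54 to 0.70. Lamp2 thus differed and its more abundant relative hardly did. Scarb2, for the receptor LIMP-2 that carries glucocerebrosidase to lysosomes, was at 96.4 FPKM in the Hdac3 cKO library and 103 FPKM in the control library (log2 -0.09). Mcoln1, for the calcium channel TRPML1, was at 16.97 FPKM in the Hdac3 cKO library and 16.6 FPKM in the control library (log2 0.03). Cln3, for a membrane protein lost in juvenile Batten disease, was at 11.1 FPKM in the Hdac3 cKO library and 10.6 FPKM in the control library (log2 0.06).

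Of the TFEB family, Tfeb was the lysosomal gene with the most negative difference at the pseudocount of 1 FPKM. With a pseudocount of 0.1 FPKM, Mitf lay slightly lower, at -0.77 beside -0.76 for Tfeb. Tfeb, on chromosome 17 from 47873986 to 47929365 (mm9), had 14.3 FPKM in the Hdac3 cKO library, with an interval of 13.7 to 15.02, and 24.3 FPKM in the control library, with an interval of 22.8 to 25.8. The log2 difference was -0.73, with bounds of -0.87 to -0.57, and 7.43% of all tested genes had a smaller one. It fell short of the 2-fold rule on the deposited scale and met it after scaling to the same sum, at -1.04. That scaling depends in part on a single large entry. Tfeb is also transcribed in oligodendrocytes, whose 13 markers were all lower in the Hdac3 cKO library as given above. Whether the marker differences have a part in the Tfeb difference was not tested. Mitf, the master factor of pigment cells, was at 1.77 FPKM in the Hdac3 cKO library and 3.10 FPKM in the control library (log2 -0.56). Pigment cell markers summed to 4.38 FPKM in the Hdac3 cKO library and 3.95 FPKM in the control library over 7 genes, 5 of them below 1 FPKM in both. Tfe3 had a difference above 0, at 14.7 FPKM in the Hdac3 cKO library and 11.7 FPKM in the control library (log2 0.31), and its sign changed at the same sum. In the control library Tfeb was the most abundant of the family, and in the Hdac3 cKO library Tfe3 and Tfeb were at nearly the same level with overlapping intervals. Each of these genes has 3 start site groups in the files, so a value sums over promoters.

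**Figure D3:**
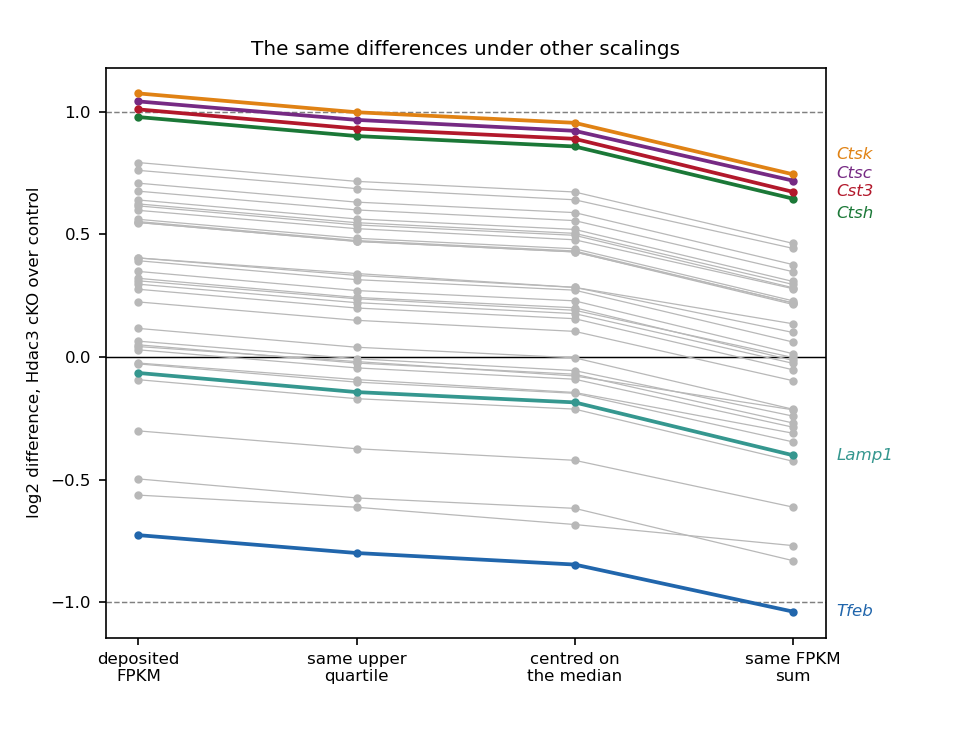
Log2 difference of the 38 lysosomal genes, Hdac3 cKO over control, on the deposited FPKM and under the other scalings, with 1 line per gene and dashed lines at 2-fold. Ctsk, Ctsc and Cst3 are past 2-fold on the deposited scale and below it under each other scaling, and Tfeb passes 2-fold at the same FPKM sum.

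E-boxes were common in the promoters of these genes. Of the 36 genes with a RefSeq promoter entry (250 bases before to 50 after the start site, GRCm38.p6), 12 hold CACGTG (33.3%), a motif that reads the same on both strands. Among all tested genes with an entry, 11.4% hold it, and among protein-coding genes 8.91%. The longer motif TCACGTGA, which contains the first, is in 5 of the 36 (13.9%), Cln3, Ctsa, Ctsd, Gla and Mcoln1, beside 2.09% of tested genes. Ctsb and Ctsh have no promoter entry in that table. The promoter of Lamp1 holds 4 copies, more than any other of these genes, within the 100 bases before its start site. That stretch and the sites of 6 further genes are printed as examples from genes with differences above and below 0, with the E-box in capitals. For Cln3, Ctsd and Mcoln1, which hold 2 E-boxes each, the printed site is the 1 within TCACGTGA.
Lamp1: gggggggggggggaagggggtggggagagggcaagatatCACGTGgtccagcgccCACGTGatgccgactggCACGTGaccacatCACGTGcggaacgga
Cln3: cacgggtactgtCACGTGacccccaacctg
Ctsd: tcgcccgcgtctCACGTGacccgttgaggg
Mcoln1: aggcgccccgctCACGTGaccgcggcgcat
Glb1: ctgcttctgagtCACGTGgcctacagaggc
Naglu: caaccttcaggtCACGTGgcccgaggtcgg
Lgmn: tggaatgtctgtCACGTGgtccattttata

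All read 5′ to 3′ on the strand of the gene. The Lamp1 stretch is chr8:13159061-13159160 (plus strand). The 30-base sites are chr7:126583340-126583369 (minus strand) for Cln3, chr7:142387908-142387937 (minus strand) for Ctsd, chr8:3500462-3500491 (plus strand) for Mcoln1, chr9:114401018-114401047 (plus strand) for Glb1, chr11:101070009-101070038 (plus strand) for Naglu and chr12:102439124-102439153 (minus strand) for Lgmn. Lysosomal genes with and without CACGTG in this window had similar median differences and overlapping ranges. The 12 with it had a median log2 difference of 0.33 and a range of -0.50 to 0.76, and none was past the rule. The 24 without it had a median of 0.36 and a range of -0.73 to 1.07, and they include Cst3, Ctsk and Ctsc. Over all tested genes with an entry, the median was 0.10 with the E-box and 0.12 without it. Of 1177 such genes with the E-box, 41 were called higher and 39 lower. Of 9135 without it, 406 were called higher and 427 lower. Calls were thus few in both sets. Counts of 0 among 12 and 3 among 24 lysosomal genes are too small to tell whether calls differ by E-box. A match is a description of the letters and not a bound site.

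**Figure D4:**
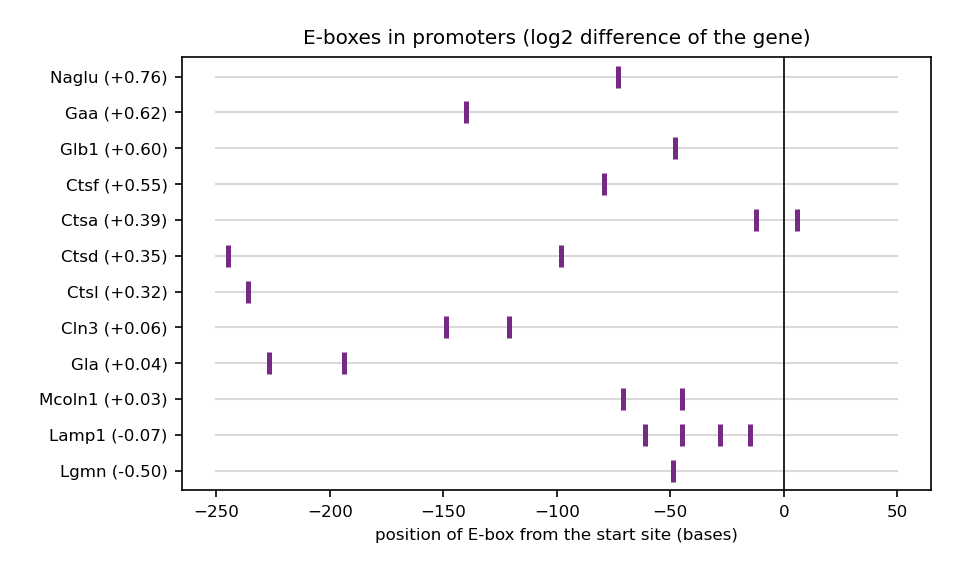
Position of each E-box, in bases from the start site, in the promoters of the 12 lysosomal genes that hold at least 1, ordered by log2 difference (Hdac3 cKO over control, in brackets). Lamp1 has 4 E-boxes and a difference of -0.07, while Naglu has 1 and a difference of 0.76.

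A further 7 lists hold 103 genes of the lysosome, of its control, of autophagy and of protease inhibition. Of 101 tested, 2 were higher and 2 lower (1.98% each way, beside 4.73% and 4.51% of all tested genes), and the median log2 difference was 0.13. The hydrolases and activators among them were close to the genes above, with a median of 0.38 over 20 genes. Psap, for the precursor of the saposins that help degrade sphingolipids, was at 499 FPKM in the Hdac3 cKO library and 385 FPKM in the control library (log2 0.37). Hgsnat, for an acetyltransferase of heparan sulfate breakdown, was at 26.5 FPKM in the Hdac3 cKO library and 14.1 FPKM in the control library (log2 0.86). Acp5, for the acid phosphatase of osteoclasts and macrophages, was called higher at 2.72 FPKM in the Hdac3 cKO library and 0.833 FPKM in the control library (log2 1.021). Npc2, for a carrier of cholesterol inside the lysosome, was at 76.1 FPKM in the Hdac3 cKO library and 91.2 FPKM in the control library (log2 -0.26).

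Further membrane proteins spread widely around a median of 0.32 over 18 tested genes. Cd63, for a tetraspanin of late endosomes, was at 438 FPKM in the Hdac3 cKO library and 247 FPKM in the control library (log2 0.83), and Laptm4a at 411 FPKM in the Hdac3 cKO library and 221 FPKM in the control library (log2 0.89). Abca2, a lysosomal lipid transporter known from oligodendrocytes, was called lower at 27.5 FPKM in the Hdac3 cKO library and 77.5 FPKM in the control library (log2 -1.46). Npc1, for the protein that passes cholesterol out of the lysosome, was at 22.4 FPKM in the Hdac3 cKO library and 45.3 FPKM in the control library (log2 -0.98). Genes of this list thus differed in both directions. For enzyme tagging and sorting (10 genes, median 0.14), the gene called lower was Gnptab, for the phosphotransferase that starts the mannose 6-phosphate tag. It was at 10.1 FPKM in the Hdac3 cKO library and 30.6 FPKM in the control library (log2 -1.51). M6pr, for a receptor of that tag, was at 69.9 FPKM in the Hdac3 cKO library and 53.9 FPKM in the control library (log2 0.37), and Gnptg, for the other subunit of the phosphotransferase, at 45.1 FPKM in the Hdac3 cKO library and 43.4 FPKM in the control library.

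Subunits of the proton pump that acidifies lysosomes, the V-ATPase, had a median of 0.02 over 18 genes, below that of all tested genes. Atp6v0c was called higher at 219 FPKM in the Hdac3 cKO library and 66.8 FPKM in the control library (log2 1.70), but this value is uncertain. The entry of Atp6v0c-ps2, a pseudogene copy, shares 5508 bases with it and was at 24.7 FPKM in the Hdac3 cKO library and 155 FPKM in the control library. The entries together gave 243 FPKM in the Hdac3 cKO library and 221 FPKM in the control library, a log2 difference of 0.14. Genes of the nutrient control of TFEB, among them the Rag GTPases and the folliculin partners, had a median of -0.06 over 14 genes with 0 past the rule. In that list Rraga was at 51.8 FPKM in the Hdac3 cKO library and 51.1 FPKM in the control library, and Fnip2 at 3.62 FPKM in the Hdac3 cKO library and 5.83 FPKM in the control library (log2 -0.56). Autophagy genes had a median of 0.17 over 17 genes, also with 0 past the rule. Sqstm1, for the cargo receptor p62, was at 125 FPKM in the Hdac3 cKO library and 94.7 FPKM in the control library (log2 0.40). Other protease inhibitors, 4 tested genes with a median of 0.52, included Serpina3n at 421 FPKM in the Hdac3 cKO library and 223 FPKM in the control library (log2 0.91), and Cstb, for an intracellular cystatin, at 90.8 FPKM in the Hdac3 cKO library and 75.5 FPKM in the control library (log2 0.26). Cst7, added after its values were seen, had a difference below 0, at 0.483 FPKM in the Hdac3 cKO library and 1.30 FPKM in the control library (log2 -0.63).

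**Figure D5:**
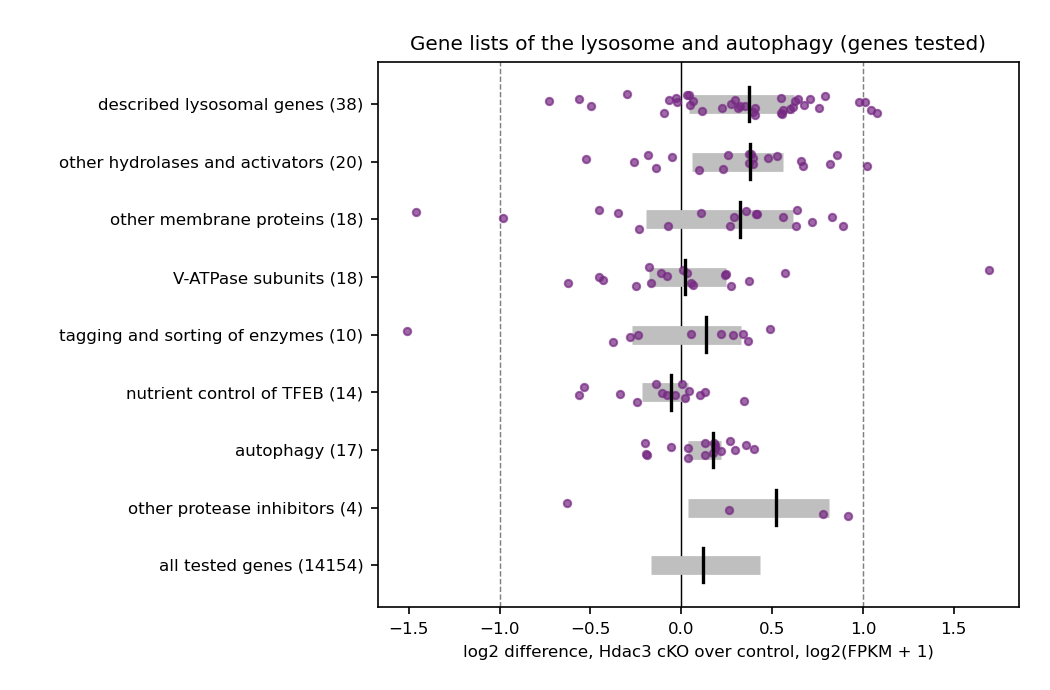
Log2 difference, Hdac3 cKO over control, of the 38 lysosomal genes, of the other lists and of all tested genes, with the number of tested genes in brackets. Points are genes, grey bars the middle 50% and black ticks the medians, which run from -0.06 for the nutrient control of TFEB to 0.52 for the other protease inhibitors, beside 0.37 for the 38 genes and 0.12 for all tested genes.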

How the data were processed

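Per the labels' protocols, optic nerves were frozen on dry ice, Trizol was used for RNA and the TruSeq RNA kit of Illumina for libraries. The submitters' processing notes name CASAVA, TopHat, Cufflinks and the mm9 build; for versions, annotation, strand handling and read counts, nothing is given in the sources used here. The authors deposited FPKM per gene with interval bounds and a status, per the file headers. Of several entries for 1 symbol, the one most abundant over both libraries was used. Genes entered the comparison with status OK in both libraries and at least 1 FPKM in either, with a pseudocount of 1 and no further scaling. FPKM lay above its own interval for 21 of the 38 genes in the Hdac3 cKO library and 13 in the control library, and below it for 1 gene, Ctsb, in the Hdac3 cKO library. Entry starts were shifted by 1 base to count from 1, since end minus start equalled the RefSeq gene length for 10446 genes. Promoters are RefSeq, GRCm38.p6. Members and lists were chosen with earlier results of these data known. Named are all 38 genes, Hdac3 and, per list, the 2 most abundant genes, the 2 with the largest difference and called genes, of which some are left out. Python 3.11.15, pandas 2.3.3, numpy 2.4.6 and matplotlib 3.10.9 were used.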

Additional observations from a re-analysis of the deposited data

How the results depend on the processing

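The number of lysosomal genes called higher, 3 on the deposited scale, was 1 with a pseudocount of 5 FPKM (Cst3), 0 at the same upper quartile, 0 when centred on the median, 0 at the same FPKM sum and 12 at 1.5-fold. The number called lower, 0, was 1 (Tfeb) at the same FPKM sum and at 1.5-fold. The median of the 38 genes was 0.25 when centred and 0.037 at the same sum; that of the cysteine cathepsins was 0.43 and 0.22 in these settings. For the glycan and glycolipid group it was 0.28 and 0.14, with 0.29 at a pseudocount of 5 FPKM and 0.60 at a minimum of 5 FPKM, where 35 of the 38 genes remained. The membrane protein median changed sign, to -0.045 at the same upper quartile, -0.091 when centred and -0.29 at the same sum. Under some scaling 10 genes changed sign (Cln3, Ctsl, Ctso, Ctss, Gla, Gusb, Man2b1, Mcoln1, Tfe3 and Tpp1). Scalings act through a common factor on the Hdac3 cKO library by construction, and the factor for equal sums depends in part on a single large entry. Over all tested genes, 669 higher and 638 lower on the deposited scale became 1156 and 823 with a pseudocount of 0.1 FPKM, 282 and 339 with 5 FPKM, 439 and 761 when centred, 215 and 963 at the same sum, and 2262 and 1253 at 1.5-fold. Intervals centred on each FPKM, an alternative added after the data were seen, left 3 higher and 0 lower. No paired analysis was possible because each group has 1 library and the result comes from no test. Without read counts, depth and the spread between animals are unknown.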

Other observations

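Markers of perivascular and meningeal macrophages and of fibroblasts were among the marker genes with the larger positive differences. These differences were smaller in size than the negative differences of the 13 oligodendrocyte markers. Pf4 was at 44.0 FPKM in the Hdac3 cKO library and 17.4 FPKM in the control library (log2 1.29), F13a1 at 29.8 FPKM in the Hdac3 cKO library and 10.7 FPKM in the control library (log2 1.40), and Mrc1, the mannose receptor that takes up glycoproteins for lysosomal breakdown, at 27.9 FPKM in the Hdac3 cKO library and 10.5 FPKM in the control library (log2 1.33). Cd163, a scavenger receptor for haemoglobin, was at 11.2 FPKM in the Hdac3 cKO library and 3.59 FPKM in the control library (log2 1.41). Among microglia markers, Fcer1g was at 56.9 FPKM in the Hdac3 cKO library and 25.7 FPKM in the control library (log2 1.12), while C1qb, at 125 FPKM in the Hdac3 cKO library and 69.8 FPKM in the control library (log2 0.83), did not meet the rule, and Cx3cr1, at 16.2 FPKM in both libraries, and Siglech, at 3.09 FPKM in the Hdac3 cKO library and 4.34 FPKM in the control library (log2 -0.39), were not higher; these 2 were picked after their values were seen. Of the fibroblast genes, Dcn had the largest difference, at 429 FPKM in the Hdac3 cKO library and 138 FPKM in the control library (log2 1.63).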
